A study of Anas platyrhynchos with 3 samples.

Results

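The genes described here encode the enzymes and carriers that build, lengthen, bind and store fatty acids, and those that turn them into ceramides. A list of 57 gene symbols was looked up in an RNA-seq table of 14938 genes measured in Pekin duck (Anas platyrhynchos) whole bill skin. The table held 50 of them under their own symbol, and these are the members. Another 4, CERS4, LPL, CEBPA and SMPD1, stood in the table under a gene number that a RefSeq gene table pairs with the symbol. They are given beside the members and are not counted among them. DGAT1, PLIN3 and FABP4 were not analysed here. Embryos were taken at embryonic day 24 to 26, once through the inner membrane of the shell and 24 to 48 hours short of hatching, from eggs kept at 37 °C. There were 3 biological replicates of 1 group, with no treatment and no second group, so a gene could only be set against other genes within each library.

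Skin keeps water in through lipid sheets between the dead outer cells, made of ceramides, cholesterol and free fatty acids. Ceramides are made from serine and palmitoyl-CoA, joined to a second acyl chain by ceramide synthases, and in mammalian epidermis ELOVL4 and CERS3 give the ultra-long chains on which the barrier depends. Lamellar granules, loaded in mammals by the transporter ABCA12, carry these lipids to the cell surface. Bird keratinocytes are also known to hold droplets of neutral fat.

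The libraries held 32247700, 30630039 and 25268141 counted reads in replicates 1, 2 and 3. Levels are in FPKM, read counts scaled to gene length and library size, so genes of different length can be compared as far as the gene models behind them hold. The median gene had 13.3, 13.1 and 13.3 FPKM over the 10605 genes tested, those reaching 1 FPKM in every library. Of 17 keratinocyte marker genes found, 15 were higher than this median gene, led by SFN, PERP and DSP. Of 19 fibroblast markers tested 16 were higher, led by SPARC, COL1A2 and DCN. The share of all genes tested that were higher was 43.7%. The fibroblast markers were highest in replicate 2 in 19 of 19 cases, with summed levels of 4527, 8044 and 4711 FPKM in replicates 1, 2 and 3. The keratinocyte markers were lowest in replicate 2 in 15 of 17 cases, with summed levels of 5720, 4838 and 5549 FPKM. Among all genes tested, 34.0% were highest and 36.6% lowest in replicate 2. Skin of replicate 2 thus carried more fibroblast transcript relative to keratinocyte transcript than the other 2 libraries. Values without replicate 2 are given for some of the members. In whole skin, fewer cells of a type and less RNA per cell cannot be told apart.

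Of the 50 members, 46 passed the minimum of 1 FPKM in all 3 libraries, and ELOVL3, CERS1, PLIN1 and CIDEC did not. In limma's moderated test against the median gene of each library, with Benjamini-Hochberg adjustment over all genes tested, 28 of the 46 (60.9%) were higher, against 43.7% of all genes tested, and 12 (26.1%) were lower, against 43.6%. The other 6 did not pass. The median difference of the tested members from the median gene was 0.82 on the log2 scale, against -0.01 over all genes tested. Without replicate 2, 29 were higher and 12 lower. With the 4 genes known by number the counts were 31 higher and 13 lower. The median gene itself depends on the minimum: with none, 34 members were higher and 13 lower, and at 5 FPKM 22 were higher and 11 lower. With none, all 50 members were tested. At 5 FPKM, ELOVL2, CERS6, DEGS2, SGMS2, FADS2, ACSL5 and TECR dropped out of the test. The shares of all genes called at these minima are not given here, so the counts cannot be read as an excess over all genes.

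**Figure D1:**
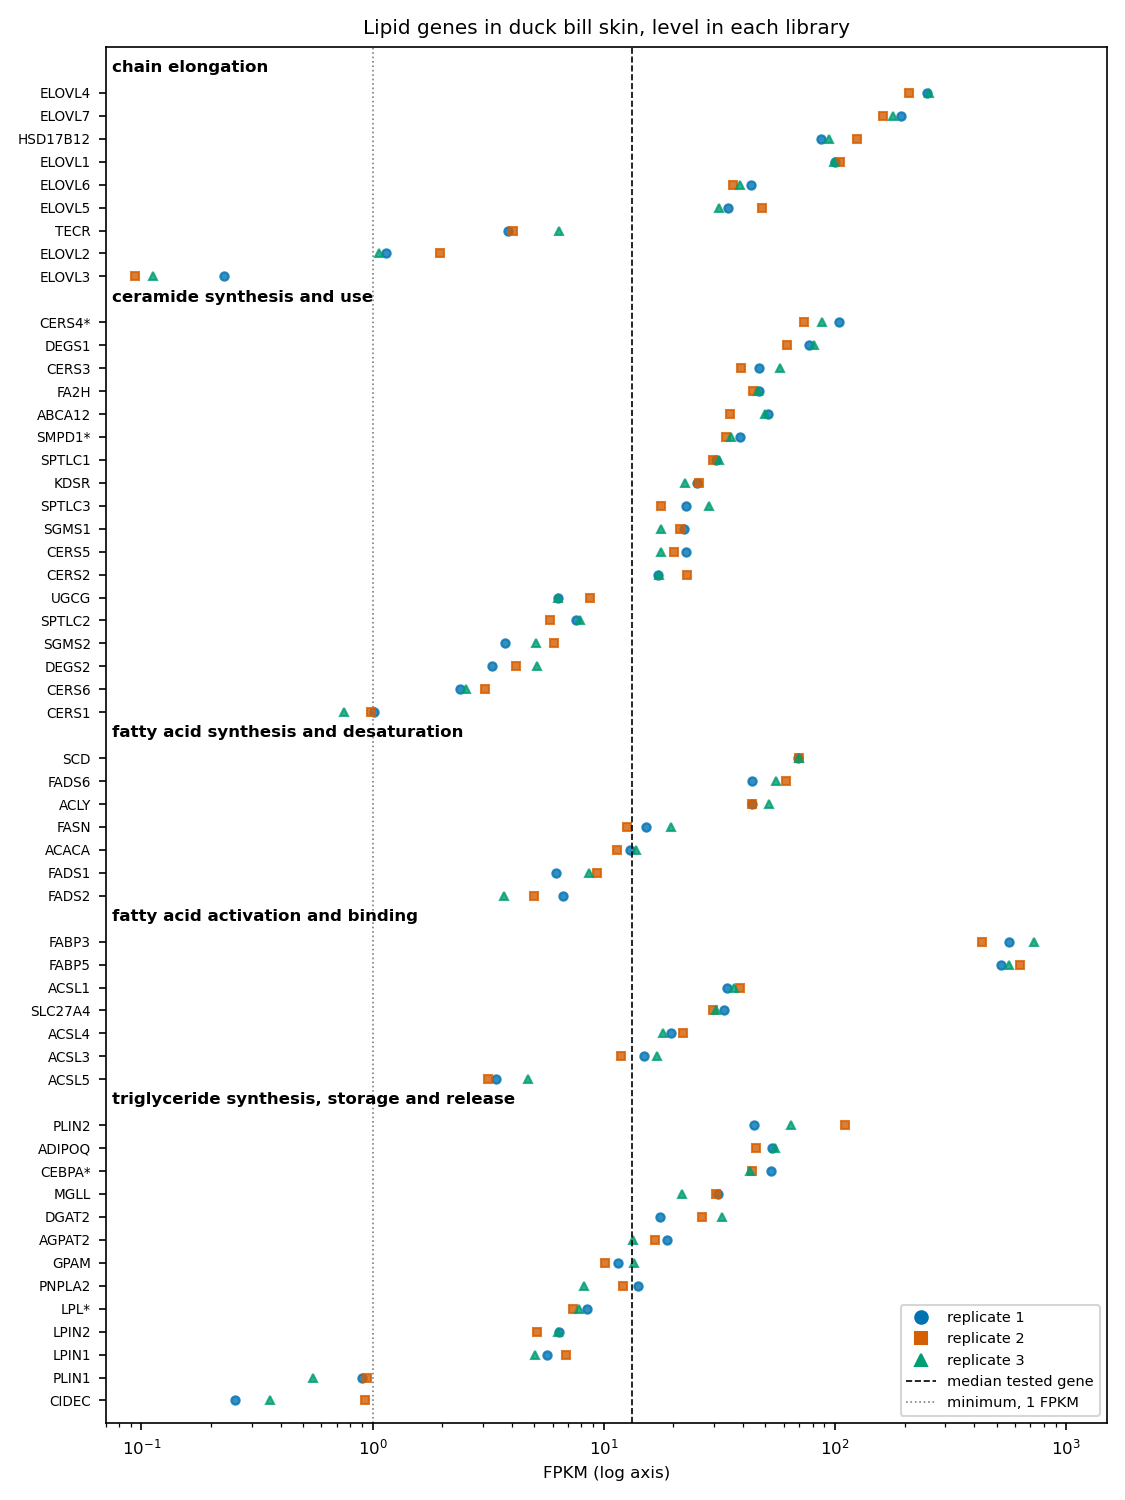
Level of each lipid gene in FPKM on a log axis, grouped by role, with 1 symbol per library and an asterisk for the 4 genes found by gene number. FABP3 and FABP5 lie farthest to the right with means of 573.8 and 573.3 FPKM, and ELOVL3, CERS1, PLIN1 and CIDEC lie at or below the minimum of 1 FPKM.

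Chain elongation held the highest enzyme transcripts among the members. ELOVL proteins catalyse the first step of each elongation cycle and differ in the chains they accept, and 7 of them were measured. ELOVL7, which extends saturated long chains, had 192.8, 161.6 and 178.9 FPKM in replicates 1, 2 and 3. ELOVL1, which makes the very-long saturated chains of sphingolipids, had 99.9, 104.6 and 99.2 FPKM. ELOVL4, the enzyme of ultra-long chains and the reference of the family, had 250.9, 207.9 and 255.2 FPKM. ELOVL4 was the highest elongase in every library and stood at rank 270 of all 14938 genes. The 3 genes together took 87.3, 84.6 and 88.2% of the summed FPKM of the 7 elongases.

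The remaining elongases were lower. ELOVL6, which extends palmitate, averaged 39.5 ± 3.47 FPKM, and ELOVL5, which extends polyunsaturated chains, averaged 38.1 ± 8.86 (SD, n = 3 each). Their order differed between libraries, since ELOVL5 was the higher of the pair in replicate 2 at 48.2 FPKM, against 36.2 for ELOVL6. ELOVL2, the elongase of longer polyunsaturated chains, had only 1.14, 1.96 and 1.06 FPKM. ELOVL3, known from sebaceous glands and brown fat in mice, had 0.229, 0.0934 and 0.113 FPKM from 10, 4 and 4 reads, where 3 reads make 0.0686, 0.0701 and 0.0845 FPKM. ELOVL3 was thus near the limit of detection in replicates 2 and 3, and ELOVL2 was read from 105 to 233 reads a library.

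Within the family, each elongase was set against ELOVL4 in the same library by a moderated test whose variance prior came from pairs of genes, adjusted over all genes set against ELOVL4. All 5 elongases tested were lower than ELOVL4, as were 96.6% of all genes. Across the members as a whole, 20 such comparisons with a family reference were made, of which 4 were higher, 13 lower and 3 not apart. Where members were lower, the share of all genes lower ran from 43.2% for ACSL3 to 96.6% for ELOVL4. Where members were higher, 38.0% of all genes were above ACSL3 and 69.3% above FADS2. The pooled counts thus depend on the level of each reference and are not a result about the members. ELOVL7 was the nearest to ELOVL4, 1.34-fold below it (log2 -0.42 ± 0.14 SE, adjusted p = 0.023, lower in 3 of 3 libraries). That call did not hold without replicate 1 (adjusted p = 0.07) or replicate 3 (adjusted p = 0.12), and the adjusted p ran from 0.012 to 0.12 over all alternatives. ELOVL1 was 2.34-fold below ELOVL4 (log2 -1.23 ± 0.16 SE, adjusted p = 9.9e-05), ELOVL6 6.01-fold and ELOVL5 6.32-fold. ELOVL2 was 165-fold below it.

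An elongation cycle needs further enzymes after the ELOVL step. HSD17B12, the ketoacyl reductase of the cycle, had 87.3, 124.7 and 94.5 FPKM, 7.58-fold above the median gene (log2 2.92 ± 0.13 SE, limma adjusted p = 4e-06). TECR, the enoyl reductase that closes the cycle, had 3.87, 4.06 and 6.41 FPKM and was below the median gene in all 3 libraries (log2 -1.49 ± 0.16 SE, adjusted p = 0.00017). The dehydratase step between them is carried out by HACD proteins, of which HACD2 had 76.2, 60.8 and 85.2 FPKM, and HACD3, HACD4 and HACD1 averaged 46.4, 6.16 and 3.78 FPKM. HACD2 and HACD3 were above the median gene, and HACD4 and HACD1 were below it. No test between these genes was made.

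Ceramide formation starts with serine palmitoyltransferase, a complex of SPTLC1 with either SPTLC2 or SPTLC3 as the second large subunit. SPTLC2 had 7.57, 5.86 and 7.86 FPKM. SPTLC3, which lets the enzyme use other chain lengths, had 22.8, 17.6 and 28.4 FPKM. SPTLC1, the shared subunit and the reference of the family, had 30.5, 29.7 and 31.5 FPKM. SPTLC3 exceeded SPTLC2 in all 3 libraries and made up 37.5 ± 4.4% of the summed FPKM of the 3 genes, against 11.7 ± 0.717% for SPTLC2. SPTLC2 was 4.29-fold below SPTLC1 (log2 -2.10 ± 0.15 SE, moderated test adjusted p = 7.2e-06), and 67.3% of all genes were lower than SPTLC1. SPTLC3 was 1.35-fold below it (log2 -0.44 ± 0.17 SE, adjusted p = 0.042). That second call was lost without replicate 1 (adjusted p = 0.10) and without replicate 2 (adjusted p = 0.18), and also with a lower minimum or none, with an adjusted p from 0.02 to 0.18 over the alternatives. SPTSSB, a small subunit that alters the chain length the complex accepts, averaged 69.0 FPKM.

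KDSR, which reduces the first product of the complex, averaged 24.5 ± 1.75 FPKM and was above the median gene (log2 0.88 ± 0.09 SE, limma adjusted p = 0.00018). Ceramide synthases then add the second acyl chain. CERS2, which prefers very-long chains and is broadly expressed in mammals, had 17.1, 22.8 and 17.4 FPKM. CERS5, which prefers palmitoyl chains, had 22.6, 20.0 and 17.6 FPKM. CERS6, with a similar preference, had 2.38, 3.05 and 2.53 FPKM. CERS1, the synthase of brain and muscle in mammals, had 1.01, 0.988 and 0.755 FPKM from 43, 41 and 26 reads. CERS3, the epidermal and testis enzyme of ultra-long chains and the reference of the family, had 47.1, 39.1 and 57.7 FPKM. CERS3 was the highest of these 5 in each library, with 52.6 ± 7.34% of their summed FPKM.

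CERS2 was 2.49-fold below CERS3 (log2 -1.32 ± 0.21 SE, adjusted p = 0.00051), CERS5 2.36-fold (log2 -1.24 ± 0.19 SE, adjusted p = 0.00043) and CERS6 17.3-fold (adjusted p = 8.5e-07). These 3 of 3 tested synthases were lower in 3 of 3 libraries, and 78.3% of all genes were lower than CERS3. The order changes once the gene numbered LOC101790332 is added, which the RefSeq table names CERS4, a synthase known in mouse from sebaceous glands and hair follicles. It had 103.9, 73.6 and 87.6 FPKM, against 47.1, 39.1 and 57.7 for CERS3. It was 1.85-fold above CERS3 (log2 0.88 ± 0.16 SE, adjusted p = 0.0013), a position shared by 11.2% of all genes, and passed under all 9 alternatives with an adjusted p of at most 0.0084. With it included, CERS4 made up 49.1 ± 3.89% and CERS3 26.7 ± 4.07% of the summed synthase FPKM.

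The desaturase step that turns dihydroceramide into ceramide is carried out by DEGS1, and DEGS2 makes the hydroxylated phytoceramides found in mammalian epidermis. DEGS2 had 3.29, 4.18 and 5.15 FPKM, against 76.8, 61.9 and 81.5 for DEGS1. DEGS2 was 17.2-fold lower (log2 -4.11 ± 0.18 SE, adjusted p = 3.2e-07), and 86.8% of all genes were lower than DEGS1. DEGS2 held 5.46 ± 1.19% of the summed FPKM of the pair.

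Ceramide leaves this pathway by several routes, among them as glucosylceramide or sphingomyelin. Genes of other routes were counted in a further list below. FA2H, which hydroxylates the acyl chain of ceramides, had 47.1, 44.0 and 46.6 FPKM, a CV of 3.63%. ABCA12 had 51.3, 35.01 and 49.6 FPKM and was lowest in replicate 2. UGCG, which adds glucose to ceramide for transport in lamellar granules, had 6.35, 8.68 and 6.36 FPKM and was below the median gene (log2 -0.90 ± 0.13 SE, limma adjusted p = 0.00065). With no minimum that call was lost (log2 -0.10, adjusted p = 0.52), in a range of 2.8e-05 to 0.52 over the alternatives. SGMS2, the sphingomyelin synthase of the plasma membrane, had 3.73, 6.10 and 5.07 FPKM, against 22.1, 21.3 and 17.6 for SGMS1, the synthase of the Golgi. SGMS2 was 4.1-fold lower (log2 -2.03 ± 0.20 SE, adjusted p = 4.2e-05), and 54.2% of all genes were lower than SGMS1. SMPD1, the acid sphingomyelinase that releases ceramide again, had 39.0, 33.9 and 35.4 FPKM on a gene model of only 487 bases. Of the 15 tested members of ceramide synthesis and use, 10 (66.7%) lay above the median gene and 5 (33.3%) beneath it. The shares of all genes tested were 43.7 and 43.6%. These counts depend on the minimum. At 5 FPKM, CERS2, CERS5, SGMS1 and SPTLC3 no longer passed as higher (limma adjusted p = 0.48, 0.93, 0.94 and 0.30). With none, SPTLC2 no longer passed as lower (adjusted p = 0.47).

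**Figure D2:**
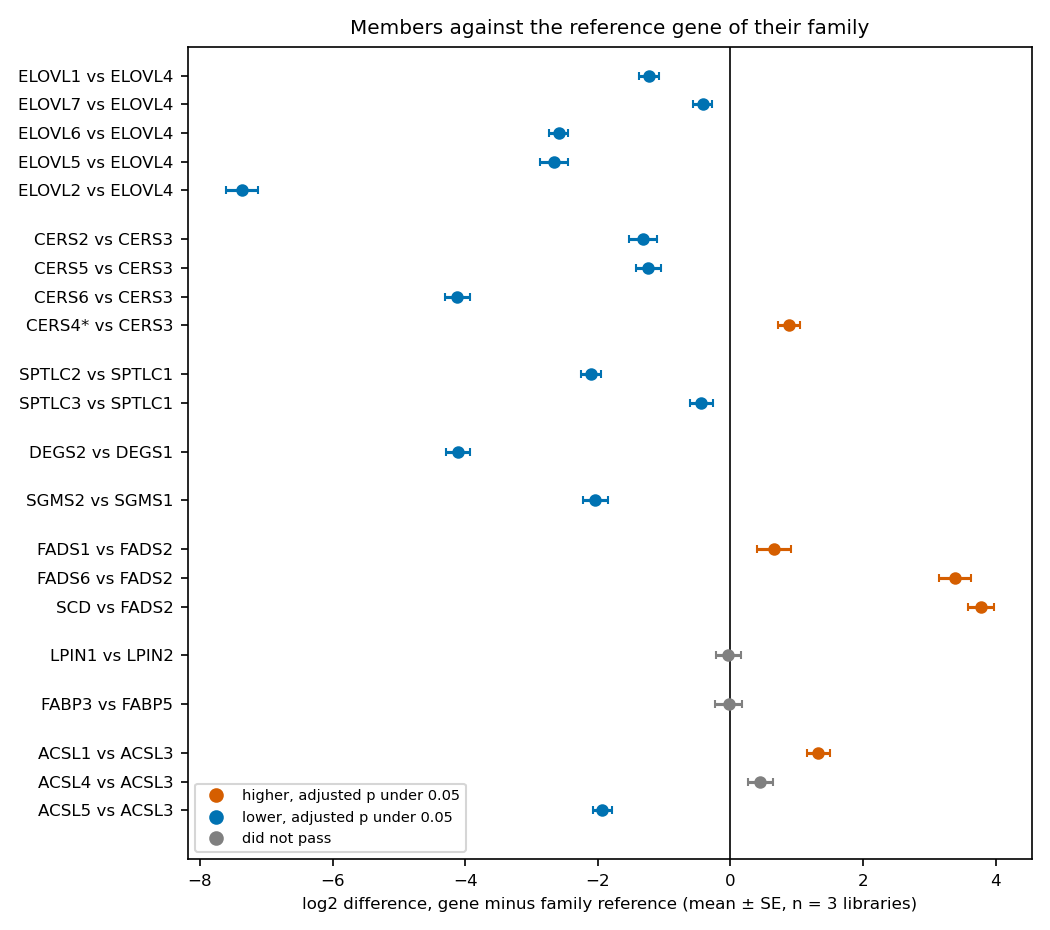
Mean log2 difference between each gene and the reference gene of its family within a library, with SE as bars over 3 libraries; an asterisk marks CERS4, found by gene number. Points left of 0 are lower than the reference, with ELOVL2 lowest at -7.37 and SCD highest at 3.78, and the grey points of LPIN1, FABP3 and ACSL4 did not pass an adjusted p of 0.05.

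Fatty acid synthesis was uneven along its steps. ACLY, which supplies cytosolic acetyl-CoA, averaged 46.3 ± 4.76 FPKM and was 3.47-fold above the median gene (log2 1.795 ± 0.10 SE, limma adjusted p = 8.6e-06). ACACA, the carboxylase that commits acetyl-CoA to the pathway, had 13.0, 11.4 and 13.7 FPKM (log2 -0.06 ± 0.10 SE, adjusted p = 0.57). FASN, the synthase itself, had 15.2, 12.6 and 19.6 FPKM and did not pass (log2 0.23 ± 0.13 SE, adjusted p = 0.15). Without replicate 2, where FASN was lowest, it was above the median gene (log2 0.37, adjusted p = 0.03), within an adjusted p of 0.0017 to 0.66 over the alternatives. It also passed as higher with no minimum (adjusted p = 0.0017) or 0.1 FPKM (adjusted p = 0.008), and as lower at 5 FPKM (log2 -0.37, adjusted p = 0.031). ACACA likewise passed as higher with no minimum (log2 0.74, adjusted p = 0.0014) or 0.1 FPKM (log2 0.34, adjusted p = 0.022) and as lower at 5 FPKM (log2 -0.66, adjusted p = 0.00044), in a range up to 0.95.

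SCD, which places the first double bond in saturated chains, was both high and even. It had 69.2, 70.1 and 69.95 FPKM, a CV of 0.716%, and its SD on the log2 scale was below that of all but 0.283% of tested genes. FADS6, a predicted desaturase whose substrate is not established, had 43.9, 61.6 and 55.8 FPKM. FADS1, the delta-5 desaturase of polyunsaturated chains, had 6.21, 9.31 and 8.65 FPKM. FADS2, the delta-6 desaturase and the reference of the family, had 6.68, 5.0 and 3.71 FPKM. SCD was 13.7-fold above FADS2 (log2 3.78 ± 0.19 SE, adjusted p = 2.1e-06) and FADS6 10.5-fold (log2 3.39 ± 0.24 SE, adjusted p = 8.5e-06), in 3 of 3 libraries. FADS1 was 1.58-fold above it (log2 0.66 ± 0.25 SE, adjusted p = 0.042) in only 2 of 3 libraries, and the call was lost without replicate 2 (adjusted p = 0.12) or 3 (adjusted p = 0.24), with no minimum (adjusted p = 0.07) and with a minimum of 0.1 FPKM (adjusted p = 0.061), over a range from 0.0014 to 0.24. All 3 tested genes were above FADS2, as were 69.3% of all genes.

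Fatty acids are carried in the cytosol by FABP proteins, and these gave the highest levels of the whole list. FABP3, the heart-type carrier of mammals, had 565.2, 430.2 and 726.0 FPKM, against 520.6, 631.3 and 568.1 for FABP5, the epidermal-type carrier. The 2 genes stood at ranks 138 and 139 of all genes. FABP3 was the higher in replicates 1 and 3 and the lower in replicate 2, and the test did not separate them (log2 -0.03 ± 0.20 SE, adjusted p = 0.90). Without replicate 2 the difference was 0.24 on the log2 scale (adjusted p = 0.22, in a range of 0.22 to 0.91). The order of the 2 genes therefore depends on the library. Markers of skeletal muscle, where FABP3 is also high in mammals, summed to 76.6, 46.5 and 21.8 FPKM in replicates 1, 2 and 3, with 7 of the 10 markers found under the minimum. MYL1, a fast muscle myosin light chain, had 52.99, 29.7 and 11.5 FPKM, ACTA1 had 13.8, 12.9 and 6.67, and TNNC2 5.04, 3.72 and 3.43, while MYOD1, MYOG and MYF5 were at 0 in all 3 libraries. All 3 of these expressed markers were lowest in replicate 3, where FABP3 was highest. Of the markers under the minimum, TNNI2 was lowest in replicate 3 too. TNNT3, TTN and NEB were lowest in replicate 2, where FABP3 was also lowest. The part of muscle in the level of FABP3 was not tested.

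Acyl-CoA synthetases activate fatty acids for every later step. ACSL1 had 34.0, 38.8 and 36.4 FPKM, ACSL4, which prefers arachidonate, had 19.5, 21.9 and 18.1, and ACSL5 had 3.43, 3.17 and 4.68. ACSL3, a synthetase of nascent lipid droplets and the reference, had 14.95, 11.8 and 16.9 FPKM. ACSL1 was 2.51-fold above ACSL3 (log2 1.33 ± 0.17 SE, adjusted p = 0.00026), where 38.0% of all genes were above it. ACSL5 was 3.81-fold below (log2 -1.93 ± 0.15 SE, adjusted p = 1.7e-05), where 43.2% of all genes were below. ACSL4 was above ACSL3 in 3 of 3 libraries and did not pass (log2 0.45 ± 0.19 SE, adjusted p = 0.056). It passed without replicate 3 (adjusted p = 0.039), with a pseudocount of 1 FPKM (adjusted p = 0.047), at a minimum of 5 FPKM (adjusted p = 0.042) and with a variance prior from ratios to ACSL3 (adjusted p = 0.043), within a range of 0.039 to 0.25. SLC27A4, a fatty acid transporter whose loss in mice and people disturbs the skin barrier, had 33.01, 29.8 and 30.7 FPKM and was 2.34-fold above the median gene (limma adjusted p = 2.9e-05).

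GPAM, among the enzymes that acylate glycerol phosphate at the start of triglyceride synthesis, had 11.5, 10.1 and 13.5 FPKM. AGPAT2, an acyltransferase of the second step, had 18.8, 16.6 and 13.4 FPKM. Other acyltransferases of these steps were counted in a further list below. Neither GPAM nor AGPAT2 passed against the median gene (limma adjusted p = 0.15 and 0.069), but both depended on the minimum. GPAM passed as higher with none (log2 0.62, adjusted p = 0.005) and as lower at 5 FPKM (log2 -0.79, adjusted p = 0.00034), in a range up to 0.48. AGPAT2 passed as higher with none (log2 1.08, adjusted p = 8e-04), at 0.1 FPKM (log2 0.68, adjusted p = 0.0044) and without replicate 3 (log2 0.42, adjusted p = 0.027), and as lower at 5 FPKM (log2 -0.32, adjusted p = 0.037), in a range up to 0.31. LPIN1 and LPIN2 encode the phosphatases that give diacylglycerol. LPIN1 had 5.65, 6.85 and 5.04 FPKM, against 6.39, 5.14 and 6.35 for LPIN2. Their order reversed in replicate 2, and no difference was detected (log2 -0.03 ± 0.19 SE, adjusted p = 0.88), while both were below the median gene. Without replicate 2 the difference was -0.25 (adjusted p = 0.21, in a range of 0.21 to 0.89). DGAT2, which completes the triglyceride, had 17.5, 26.7 and 32.5 FPKM, 1.87-fold above the median gene (log2 0.90 ± 0.18 SE, adjusted p = 0.0032). At a minimum of 5 FPKM it no longer passed (log2 0.30, adjusted p = 0.13), in a range of 0.00074 to 0.13. Its SD was above that of 93.1% of tested genes.

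Genes of lipid droplet coats were far apart. PLIN2, the coat protein found on droplets of most cell types, had 44.8, 109.9 and 64.3 FPKM, 5.12-fold above the median gene (log2 2.36 ± 0.24 SE, adjusted p = 0.00014). Without replicate 2 its mean was 54.5 FPKM, against 73.0 with it, and it still passed (log2 2.00, adjusted p = 8e-06, in a range of 8e-06 to 0.00039). Replicate 2 was 2.46-fold above replicate 1, from 4408 and 1832 reads, and its SD was above that of 98.1% of tested genes. PLIN1, the coat protein of fat cells, had 0.896, 0.947 and 0.552 FPKM from 58, 60 and 29 reads. PLIN5, a coat protein of cells that burn fat, had 8.16, 5.98 and 6.93 FPKM. PLIN2 made up 88.9 ± 5.48% of the summed FPKM of these 3 perilipins, PLIN5 9.98 ± 5.03% and PLIN1 1.08 ± 0.506%. CIDEC, which enlarges droplets in fat cells, had 0.255, 0.93 and 0.359 FPKM from 7, 25 and 8 reads, and its mean of 0.515 FPKM falls to 0.307 without replicate 2. CIDEA, its relative, had 48.9, 42.3 and 45.8 FPKM.

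Hormone and lipase genes completed this role. ADIPOQ encodes adiponectin, known as a hormone of fat cells, and had 53.5, 45.6 and 54.8 FPKM, 3.84-fold above the median gene (log2 1.94 ± 0.10 SE, adjusted p = 6.2e-06). CEBPA, a regulator of fat cell and keratinocyte differentiation, had 52.7, 43.9 and 42.7 FPKM on a gene model of only 233 bases. LPL, which frees fatty acids from lipoproteins, had 8.47, 7.38 and 7.85 FPKM from 239, 204 and 180 reads, on a gene model of 895 bases. LPL was below the median gene (log2 -0.74 ± 0.09 SE, adjusted p = 0.00036). With no minimum it lay just above the median gene (log2 0.064), with an adjusted p of 1.2e-05 to 0.55 over the alternatives. PPARG, the master regulator of fat cells in mammals, averaged 2.20 FPKM and LEPR 0.907. Of 15 adipocyte markers listed, 11 were found, of which 6 were above the median gene, 2 below and 3 under the minimum. The first 2 counts are 75 and 25% of the 8 tested, against 43.7 and 43.6% of all genes tested. The markers found summed to 327.1, 351.5 and 344.5 FPKM in replicates 1, 2 and 3. That list shares ADIPOQ, PLIN1, CIDEC, LPL, CEBPA, DGAT2 and SCD with the genes described here. PLIN1, CIDEC, PPARG and LPL were thus low in the same libraries in which ADIPOQ, CEBPA, SCD and CIDEA were high. The part of fat cells in these levels was not tested. MGLL, the lipase of the last step of fat breakdown, averaged 27.8 ± 5.32 FPKM, and PNPLA2, the lipase of the first, 11.5 ± 2.98. PNPLA2 did not pass against the median gene (adjusted p = 0.20) at log2 -0.24. It passed as lower at a minimum of 5 FPKM (log2 -0.84, adjusted p = 0.002) and as higher with none (log2 0.56, adjusted p = 0.029), in a range of 0.002 to 0.94. G0S2, which encodes its inhibitor, had 72.4, 110.7 and 87.1 FPKM.

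The other genes of these pathways were counted from 4 further lists. Over the lists together, 87 of 102 genes found were tested, 53 were higher than the median gene and 29 lower, with a median difference of 0.63 on the log2 scale. These are 60.9 and 33.3% of the tested genes, against 43.7 and 43.6% of all genes. Of 21 tested genes of fatty acid oxidation, 19 were higher and 2 lower, with a median of 1.33. ACAA2, the thiolase of mitochondrial beta-oxidation, had 131.3, 116.9 and 159.2 FPKM, HADH had 151.9, 131.4 and 111.3, and ACADL had 119.6, 114.4 and 91.4. The 2 lower genes were ACOX3 and EHHADH, both of peroxisomes. Beside them, of the 8 tested members of chain elongation 6 were higher and 2 lower, with a median of 2.24.

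Of 28 tested sphingolipid and cornified lipid genes, 14 (50%) were higher and 11 (39.3%) lower, near the 43.7 and 43.6% of all genes. GLTP, a glycolipid transfer protein, had 355.4, 321.2 and 350.4 FPKM, ASAH1, the acid ceramidase, 319.1, 294.3 and 336.6, and PSAP, the saposin precursor, 120.3, 133.0 and 133.4. Of 24 tested genes of fatty acid supply and its regulators, 14 (58.3%) were higher and 9 (37.5%) lower. DBI, the acyl-CoA binding protein, had 536.8, 541.4 and 447.9 FPKM. PPARA, a fatty acid receptor, had 42.9, 33.04 and 55.5 FPKM, and MCAT, the malonyl transferase of mitochondrial fatty acid synthesis, 41.5, 33.8 and 41.2. Of 14 tested triglyceride and droplet genes, 6 (42.9%) were higher and 7 (50%) lower, also near the shares of all genes, with a median of -0.05. LIPA, the lysosomal acid lipase, had 24.2, 29.1 and 30.0 FPKM.

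**Figure D3:**
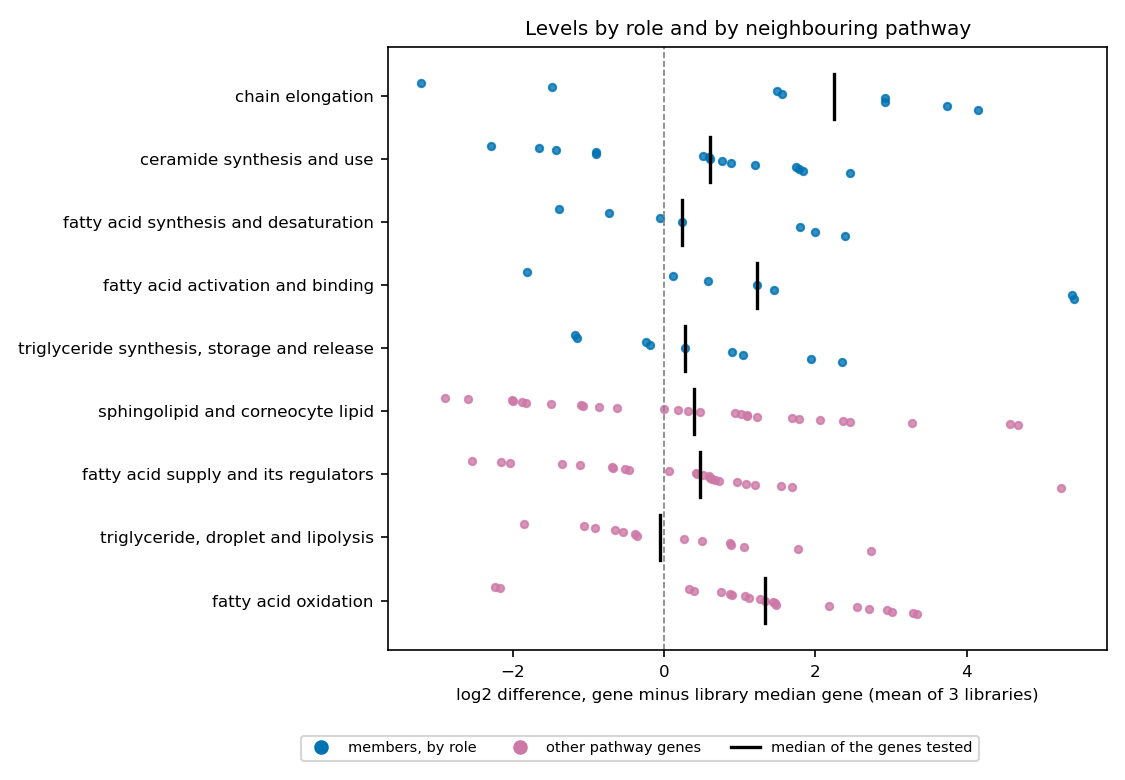
Log2 difference of each tested gene from the median gene of its library, as the mean of 3 libraries, with members by role in blue, other pathway genes in pink and a bar at each median. Chain elongation has the highest median at 2.24 and the further triglyceride, droplet and lipolysis list the lowest at -0.05.

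The spread of the members between libraries was smallest when replicate 2 was left out. The median SD of the tested members was 0.23 on the log2 scale, against 0.168 over all genes tested. Without replicate 2 it was 0.109, against 0.122 over all genes. Without replicate 1 it was 0.211, against 0.142, and without replicate 3 it was 0.192, against 0.146. Values with a replicate left out are SDs over 2 libraries. They can be set beside each other and beside all genes, but not beside the 0.23 over 3 libraries. Of the 46 members, 19 (41.3%) were lowest in replicate 2, against 36.6% of all genes tested, and 17 (37.0%) were highest in it, against 34.0%. The numbers of members on each side were thus near those of all genes, and no test of them was made.

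The members are named here by their place in replicate 2, which rests on rank alone. There 19 were lowest and 17 highest. Another 10 (21.7%) lay between the other libraries, against 29.4% of all genes tested. Those lowest in replicate 2 included ELOVL4, ELOVL6, ELOVL7, CERS3, all 3 SPTLC genes, DEGS1, FA2H, ABCA12, SLC27A4 and FABP3. The rest of that side were FASN, ACACA, GPAM, LPIN2, ADIPOQ, ACSL3 and ACSL5. Of the genes found by number, CERS4, LPL and SMPD1 were lowest there too. LPL deviated there by only -0.0946 on the log2 scale, where counting alone gives an SD of 0.1. SPTLC1 deviated there by only -0.0408, where counting alone gives 0.031. FABP3 deviated from its own mean by 0.01, -0.38 and 0.37 on the log2 scale in replicates 1, 2 and 3, ABCA12 by 0.20, -0.35 and 0.15, and CERS3 by -0.01, -0.28 and 0.28. The median keratinocyte marker deviated by 0.06, -0.18 and 0.12. Those highest in replicate 2 included PLIN2, ELOVL2, ELOVL5, HSD17B12, CERS2, CERS6, UGCG, SGMS2, FADS1, FADS6, FABP5 and LPIN1. ELOVL1, KDSR, SCD, ACSL1 and ACSL4 made up the rest of this side. The place of SCD rests on 70.09 FPKM in replicate 2 against 69.95 in replicate 3, a spread within counting error. That of KDSR rests on 25.8 FPKM in replicate 2 against 25.27 in replicate 1, where counting alone gives an SD of 0.026 on the log2 scale. PLIN2 deviated by -0.60, 0.69 and -0.08, ELOVL5 by -0.12, 0.36 and -0.25, and HSD17B12 by -0.21, 0.31 and -0.10. The median fibroblast marker deviated by -0.20, 0.48 and -0.27, and 4 tested macrophage markers had a median of -0.43, 0.29 and -0.16. Of these, CD74, at 5.40, 14.5 and 5.67 FPKM, and CTSS, at 1.90, 3.26 and 2.81, were highest in replicate 2. LAPTM5, at 3.00, 4.45 and 4.95 FPKM, was highest in replicate 3 and MRC1, at 2.90, 2.496 and 1.19, in replicate 1. Of the 13 macrophage markers found, 9 were under the minimum, with summed levels of 16.4, 32.0 and 17.3 FPKM. Schwann cell markers summed to 503.9, 897.9 and 530.2 FPKM, with 7 of 9 highest in replicate 2. PMP22, at 212.1, 441.4 and 256.1 FPKM, and MBP, at 181.6, 333 and 171, made up most of that sum. The median Schwann cell marker deviated by only -0.09, 0.16 and -0.08. Endothelial markers summed to 174.0, 153.5 and 144.6 FPKM. The part of these cell types in the levels of the members was not tested.

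**Figure D4:**
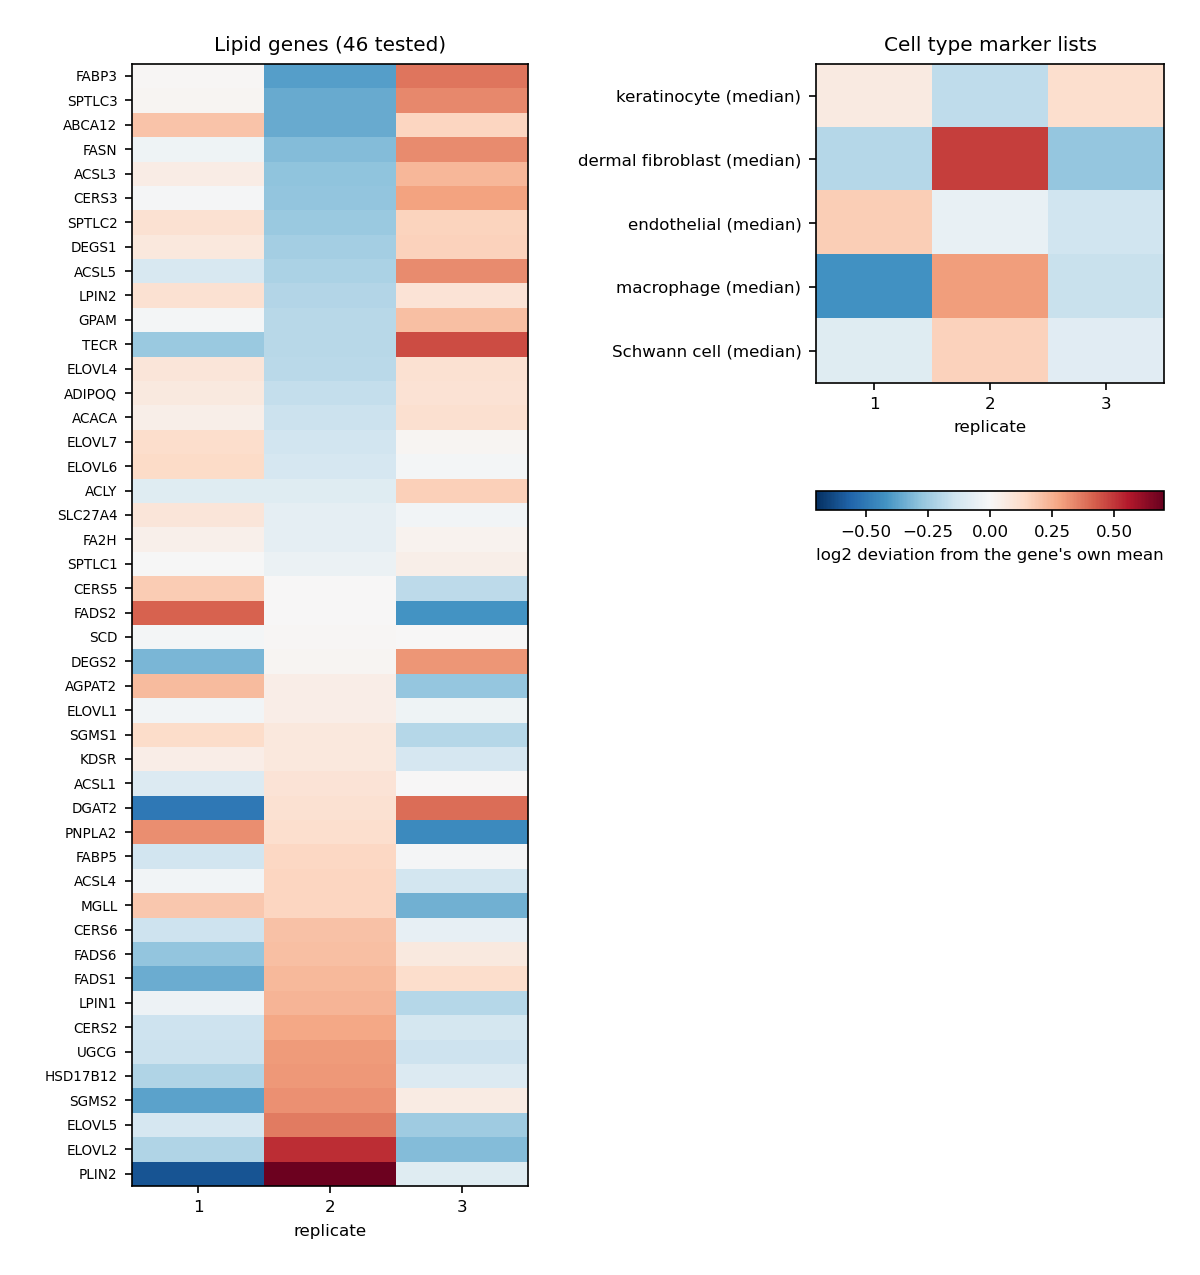
Log2 deviation of each of the 46 tested members from its own mean in replicates 1, 2 and 3, ordered by replicate 2, beside the median deviation of 5 cell type marker lists. FABP3 is the lowest in replicate 2 at -0.38 and PLIN2 the highest at 0.69, while the fibroblast list stands at 0.48 and the keratinocyte list at -0.18 in that library.

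A smaller set of members varied in another way. DGAT2 deviated by -0.50, 0.11 and 0.39 in replicates 1, 2 and 3, FADS2 by 0.41, 0.00315 and -0.42, and PNPLA2 by 0.33, 0.12 and -0.44. TECR was highest in replicate 3 at 0.45. Among the 46 members, 4 had an SD above the 90th percentile of all genes tested, PLIN2, DGAT2, ELOVL2 and FADS2. Another 4 had one below the 10th percentile, SCD, ELOVL1, SPTLC1 and FA2H. All 8 were named after their values were seen. By definition 10% of all genes lie beyond each limit, so both counts were near the share of all genes. Of the 46, 31 had an SD above the median of all genes tested. Counting error was small beside the spreads of the 4 most variable members. The expected SD from read numbers alone was 0.027 for PLIN2, 0.034 for DGAT2, 0.11 for ELOVL2 and 0.073 for FADS2 on the log2 scale. It was not small for the even members. The observed SD was 0.0527 for FA2H, 0.0422 for SPTLC1 and 0.0416 for ELOVL1, where counting alone gives 0.042, 0.031 and 0.021. For SCD, the observed SD of 0.0103 was below the 0.015 that counting alone gives.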

How the data were processed

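The deposited table gives raw whole-number counts of reads for each gene and library, per the file headers. The authors also deposited FPKM in the same table. Libraries were strand-specific, per the labels' protocols. Tools listed in the submitters' processing notes, with no role stated, are edgeR 3.22.3, Subread 1.6.2, featureCounts, STAR 2.5.4b, Trimmomatic 0.36 and CASAVA 1.8.2. For the annotation and the build, the entry is: not given in the sources used here. With edgeR TMM factors, the gene length implied by counts and FPKM was whole within 0.01 bases for 100% of 14343 genes with reads, so the FPKM carry TMM scaling. Between 60.7 and 68.1% of genes tested differed between 2 libraries beyond counting error at 95%, so no library was a copy of another.

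Tests used log2(FPKM + 0.1), which understates differences of low genes, in genes with at least 1 FPKM in every library. They were two-sided at an adjusted p of 0.05, run with limma 3.58.1 (R 4.3.3, edgeR 4.0.16; DESeq2 1.42.0 for an alternative scaling), and were tested on simulated data. In the comparison with a family reference the variance prior came from disjoint gene pairs. Each p-value weighs a mean difference against the spread between these 3 samples, moderated by the spread of other genes. Errors in gene length that all 3 libraries share are not covered by it. The members, lists and references were chosen with earlier results of these data known. Any member could be named, and of each further list the 3 highest genes, those in counts of 5 or fewer and defining markers under the minimum. HACD1, HACD2, HACD3, HACD4, PLIN5 and SPTSSB fall outside that rule and were chosen after their values were seen. Gene numbers were matched to the IASCAAS_PekinDuck_T2T gene table.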

Additional observations from a re-analysis of the deposited data

How the results depend on the processing

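No paired analysis was possible because there is 1 group; every difference was already taken within a library. Leaving out each replicate gave 28 to 29 members above and 12 in each case below the median gene, 51 to 54 pathway genes above and 28 to 29 below it, 3 to 4 members above and 11 to 12 below their family reference, and a median SD between libraries of 0.109 to 0.211, lowest without replicate 2; the cause was not tested. At a minimum of 5 FPKM, 18 pathway genes were below the median gene, against 29, and 8 members were below their family reference, against 13, since fewer genes were tested. The minimum sets the median gene. With none, ACACA (0.74), FADS1 (0.073), GPAM (0.62), LPL (0.064) and PNPLA2 (0.56) were above it on the log2 scale, as were ACACA (0.34), GPAM (0.21) and PNPLA2 (0.16) at 0.1 FPKM. At 5 FPKM, ACSL3 (-0.48), ACSL4 (-0.025), AGPAT2 (-0.32), CERS2 (-0.088), CERS5 (-0.011) and FASN (-0.37) were below it. Leaving out each replicate put ACACA between -0.11 and 0.0083, FABP3 over FABP5 between -0.22 and 0.24 and LPIN1 over LPIN2 between -0.25 and 0.12 (0.041 without replicate 1), none of them past the threshold. Of 624 values of single genes under these alternatives, 575 kept their direction and side of the threshold. With the direction kept, 16 lost the threshold and 15 gained it. The other 18 turned, as listed, and some of these crossed the threshold as well. Neither pseudocount turned a direction, and rescaling the libraries by DESeq2 size factors or total counts gave a median SD of the members of 0.23 and 0.224. The alternative with coding lengths was not run, as no protein table was used here. Including the 4 genes known by number was chosen after seeing the data and raised members above their reference to 5, with 13 below. Depth limits ELOVL3, CERS1, PLIN1 and CIDEC, all with at most 60 reads in a library; intervals of counting error do not cover differences between animals.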
